A study of Mus musculus with 18 samples.

Results

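The collagen genes of the mouse were followed in ESD3 embryonic stem cells with and without knockdown of HPRT, the purine salvage enzyme whose loss causes Lesch-Nyhan disease. A gene was taken as a collagen if its symbol in the array annotation had the form Col, number, a, number. This gave 40 genes with 87 probes, among 30869 symbols and 45281 probes in all. Each gene is represented by the probe with the highest mean signal over all arrays. The 40 genes comprised 11 fibrillar collagens, 6 basement membrane collagens (the chains of type IV) and 23 other types.

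ESD3 is a stem cell line of mouse strain 129s2/SvPas. Both kinds of cell carried a viral vector: HPRT knockdown cells expressed an shRNA against HPRT and control cells an shRNA against luciferase. Each was sampled at the embryonic stem cell (ES) stage, on primary mouse embryo fibroblast feeder cells with LIF and bFGF, at the spherical neural mass (SNM) stage, and at the neuronal stage of dopaminergic differentiation. RNA of replicate cultures was pooled within each of the 6 conditions and each pool was hybridized to 3 Illumina arrays, so every SD and test below covers the spread between arrays of 1 pool and not that between cultures. An exact permutation test of 3 against 3 arrays cannot go below p = 0.1, and the p-values given are those of limma over all probes.

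Collagens are secreted proteins built from 3 polypeptide chains that wind into a triple helix. Fibrillar collagens assemble into the fibers of bone, skin, tendon and cartilage, type IV collagens form the sheet of basement membranes, and smaller families coat fibrils (the FACIT collagens), form beaded filaments (type VI) or span the cell membrane. Several types need different chains from different genes, so the chains of a type are set side by side below. In the nervous system, collagens are best known from meninges, blood vessels and the basement membranes around peripheral nerve and muscle.

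The targeted transcript Hprt1 changed in knockdown cells by -4.09, -1.76 and -4.45 on the log2 scale at the ES, SNM and neuronal stages (limma, adjusted p = 7.15e-15, 3.86e-11 and 9.64e-17). Arrays of a condition correlated at 0.992 to 0.997 and none stood apart. The neuronal label was only in part borne out by markers: 5 of 6 neuron markers were detected in control cells and 4 of 6 in knockdown cells at that stage, and Map2 and Rbfox3 had no probe under those symbols. Of these markers, Stmn2 and Ina already averaged 10.2 and 8.24 log2 units in control ES cells. Of 6 dopaminergic markers, 3 were detected at that stage in each kind of cell: Slc18a2, Ddc and Nr4a2. Ddc already averaged 9.06 log2 units in control ES cells. Th and Slc6a3 were detected on at most 1 neuronal array of either kind of cell, and Pitx3 on none. At that stage 6 of 7 pluripotency markers were still detected in both. Skeletal muscle markers were detected for 12 of 12 genes in control neuronal cells and 6 of 12 in knockdown neuronal cells, and oligodendrocyte markers for 7 of 10 and 10 of 10. RNA came from whole cultures, so fewer cells of a type cannot be told apart from less RNA per cell.

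A gene was taken as detected in a condition when the detection p-value was under 0.05 on all 3 arrays. By that measure the ES stage had 14 collagen genes detected in control and 10 in knockdown cells, the SNM stage 27 and 31, and the neuronal stage 31 and 29. Col6a4, Col6a5, Col6a6, Col21a1 and Col26a1 were not matched under these symbols. There were 10 genes detected in all 6 conditions: Col2a1, Col4a1, Col4a2, Col5a1, Col7a1, Col9a2, Col9a3, Col18a1, Col20a1 and Col22a1. Another 8 were detected in no condition: Col4a3, Col4a4, Col5a3, Col10a1, Col11a2, Col13a1, Col25a1 and Col28a1. Col10a1, the collagen of hypertrophic cartilage, was detected on none of the 18 arrays. For Col19a1, the 1 condition with detection was control neuronal cells, and Col11a1, Col17a1 and Col24a1 were detected in 2 conditions each.

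**Figure D1:**
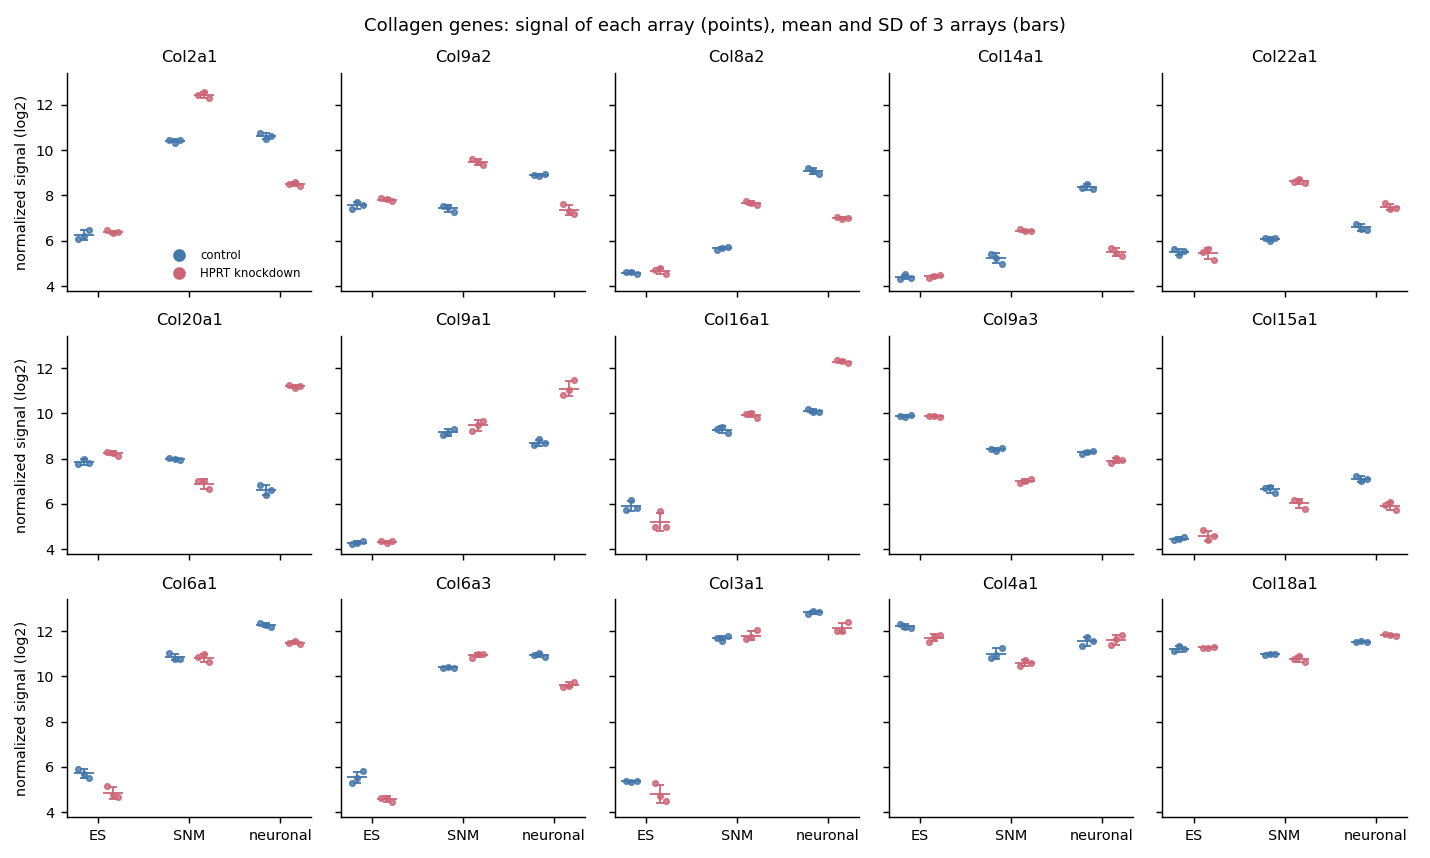
Normalized signal (log2, y axis) of 15 collagen genes at the ES, SNM and neuronal stages (x axis) in control (blue) and HPRT knockdown (red) cells; points are arrays, bars the mean and SD of 3 arrays. Col2a1, Col9a2, Col8a2 and Col14a1 are higher in knockdown cells at the SNM stage and lower at the neuronal stage, while Col20a1 is lower and then higher.

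As control cells left the ES stage, some collagens rose steeply and others fell. Of the 14 genes detected at both stages, 6 were higher (Col2a1, Col3a1, Col5a1, Col6a1, Col6a3 and Col16a1) and 4 lower at the SNM stage than at the ES stage (1.5-fold or more with an adjusted p under 0.05, as for every call below). A further 13 genes were detected in all SNM arrays but not in all ES arrays, entered the test only through the stage where they were high, and were all called higher, which makes 19 higher and 4 lower of 27 tested. Over all genes tested the shares were 25.2% higher and 24.4% lower, and nothing is read from the count of 19 against them. Col3a1, the fibrillar collagen of distensible tissues such as vessel wall, rose most: its 3 control arrays read 5.39, 5.32 and 5.37 log2 units at the ES stage and 11.71, 11.58 and 11.77 at the SNM stage, a change of 6.33 ± 0.16 (SE, adjusted p = 3.31e-15). Type VI collagen, which forms beaded filaments around cells, followed with Col6a1 (5.14 ± 0.13) and Col6a3 (4.86 ± 0.10). Col2a1, the main fibril collagen of cartilage, rose by 4.17 ± 0.10. The 4 genes that fell were Col7a1 (-1.91), which anchors epithelium to the stroma beneath, Col9a3 (-1.47), Col4a1 (-1.21) and Col4a2 (-0.88). Of the 13 genes that entered through the SNM stage, 10 were detected on no control ES array, so their rise is given as a lower bound, while Col1a2, Col4a5 and Col8a1 were detected on 1 array. Col1a1, a chain of the type I collagen of bone and skin, rose at least 5.4-fold, Col6a2 at least 7-fold and Col9a1 at least 19.6-fold. For Col4a6 (at least 1.45-fold) and Col14a1 (at least 1.28-fold) the bound was under 1.5-fold.

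From the SNM to the neuronal stage, control cells gained further collagen signal. Here 16 of 31 genes tested were higher and 1 was lower, against 15.4% and 14.8% of all genes, and among the 27 genes detected at both stages 14 were higher and 1 lower. Col8a2 and Col8a1, the 2 chains of a short-chain network collagen of cornea and vessel wall, rose together by 3.41 ± 0.08 and 3.39 ± 0.10. Col14a1, a FACIT collagen of skin and tendon, rose by 3.16 ± 0.11, and Col1a1 and Col1a2, both chains of type I, by 2.90 ± 0.15 and 2.49 ± 0.20. Col20a1, another FACIT collagen, was the gene that fell (-1.36 ± 0.11). This step shares the control SNM arrays with the previous one, so their values are set side by side and not correlated.

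In knockdown cells, 10 collagen genes were detected at both the ES and the SNM stage, and of these 4 were higher (Col2a1, Col5a1, Col9a2 and Col22a1) and 5 lower (Col4a1, Col4a2, Col7a1, Col9a3 and Col20a1) at the SNM stage. The Col7a1 call was lost without knockdown ES replicate 1 or knockdown SNM replicate 3. Another 21 entered the test only through the SNM stage and 20 of them were called higher, so the totals of 24 higher and 5 lower of 31, beside 28.1% and 29.6% over all genes, are not read as a rise of the collagens. Col3a1 had the largest change (6.98 ± 0.16), and was detected on 1 of the 3 knockdown ES arrays. Col2a1 rose by 6.05 ± 0.10 and Col6a3 at least 64.2-fold. As 17 of the 31 genes were detected on no knockdown ES array, their folds are bounds, and for Col11a1, Col17a1 and Col27a1 the bound was under 1.5-fold. From the SNM to the neuronal stage, 14 of 31 genes rose and 8 fell in knockdown cells, with 14% and 15.8% over all genes, and of these 14 and 7 were among the 29 genes detected at both stages. Col20a1 (4.30 ± 0.11), Col8a1 (3.39 ± 0.10) and Col16a1 (2.34 ± 0.15) rose most, while Col2a1 (-3.93 ± 0.10) and Col9a2 (-2.11 ± 0.11) fell most. Col1a1 rose here by 0.80 ± 0.15 with its brightest probe but stood at -0.11 (adjusted p = 0.278) when its 2 detected probes were averaged.

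At the ES stage, HPRT knockdown changed few collagens and each call was a decrease. No collagen gene was higher and 4 of 14 tested were lower in knockdown cells, against 0.531% higher and 1.27% lower over all genes (limma, adjusted p under 0.05 and at least 1.5-fold). At an unadjusted p under 0.05, whatever the fold, 2 collagens were higher and 8 lower, with 14.8% higher and 12.4% lower over all genes. The methods' t-test gave 0 higher and 3 lower before adjustment, with 0.494% and 1.1% of all probes, and none after it. The median change was -0.33 log2 units over the tested collagens and 0.01 over all genes. The 4 genes were Col6a1 and Col6a3 of type VI, the FACIT collagen Col16a1 and the anchoring fibril collagen Col7a1.

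The control ES arrays read 5.31, 5.51 and 5.80 log2 units for Col6a3, and the knockdown arrays 4.65, 4.65 and 4.44. The groups did not overlap, and Col6a3 was detected on no knockdown ES array, which made it at least 1.52-fold lower (log2 change -0.96 ± 0.10, adjusted p = 3.94e-05). Col6a1 read 5.91, 5.71 and 5.53 in control and 5.16, 4.75 and 4.66 in knockdown cells, and was detected on 1 of the 3 knockdown arrays. The difference was -0.86 ± 0.13 (adjusted p = 0.000573), and a second Col6a1 probe gave -0.44 and was not called. Col16a1 read 5.73, 6.15 and 5.82 against 4.99, 5.68 and 4.96. It was detected on 1 of the 3 knockdown arrays, and the change of -0.69 ± 0.15 (adjusted p = 0.00931) lost its call without control replicate 2 or without knockdown replicate 1 or 3. Col7a1 changed by -0.65 ± 0.12 (adjusted p = 0.00289) and lost its call without control replicate 2.

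The type IV chains Col4a1 and Col4a2, whose genes lie head to head, were the brightest basement membrane collagens. Col4a1 read 12.33, 12.18 and 12.13 log2 units in control and 11.54, 11.76 and 11.85 in knockdown ES cells. All 3 knockdown arrays were below the control arrays, but the changes of -0.49 for Col4a1 (adjusted p = 0.0281) and -0.44 for Col4a2 (adjusted p = 0.0222) were under 1.5-fold. Col3a1 read 5.39, 5.32 and 5.37 against 5.27, 4.7 and 4.5 (-0.54, adjusted p = 0.0371), also under that size. Col18a1 did not separate, at 11.11, 11.36 and 11.20 against 11.24, 11.27 and 11.32 (0.05, adjusted p = 0.701). Of the 4 calls, 3, all but Col7a1, were of genes that passed the detection filter through control cells alone. The ES cultures held fibroblast feeders, and of 9 fibroblast markers tested 2 were lower (Fbln2 -0.95, S100a4 -0.70), with a summed log2 signal of 10.66 to 10.70 in control and 10.49 to 10.53 in knockdown arrays. The smooth muscle actin Acta2, also made by fibroblasts, differed by -0.96. The part of these markers in the collagen values was not tested. None of the 4 calls held under quantile normalization without background correction.

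At the SNM stage, more collagens were higher than lower in knockdown cells. Of 31 tested, 11 (35.5%) were higher, against 12% of all genes, and 3 (9.68%) were lower, against 8.76%. The median was 0.39 log2 units, with -0.02 over all genes. Of these calls, 10 higher and all 3 lower were of genes detected in both conditions. Fibrillar collagens had 3 of 9 higher and none lower (median 0.53), basement membrane collagens 1 of 4 higher and none lower (median -0.01), and the other types 7 of 18 higher and 3 lower (median 0.41).

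Col22a1, a FACIT collagen of tissue junctions such as that of muscle and tendon, had the largest rise. Its control SNM arrays read 6.14, 5.97 and 6.12 log2 units and its knockdown arrays 8.60, 8.75 and 8.55, with no overlap and a change of 2.55 ± 0.11 (adjusted p = 5.05e-11). Col9a2, a chain of the FACIT collagen IX on cartilage fibrils, read 7.54, 7.5 and 7.26 against 9.60, 9.49 and 9.33 (2.04 ± 0.11, adjusted p = 3.54e-10). Col2a1, the fibril that collagen IX decorates, read 10.47, 10.33 and 10.46 against 12.45, 12.58 and 12.30 (2.02 ± 0.10, adjusted p = 2.44e-10). The 3 Col2a1 probes gave 2.02 to 2.14. Col8a2 read 5.61, 5.68 and 5.72 against 7.77, 7.66 and 7.59 (2.00 ± 0.08, adjusted p = 7.57e-12). Every knockdown array was above every control array for these 4 genes.

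Col14a1 read 5.42, 5.26 and 4.98 in control and 6.5, 6.43 and 6.42 in knockdown SNM arrays (1.23 ± 0.11, adjusted p = 9.32e-08), but a second detected Col14a1 probe gave 0.28 and was not called. Among fibrillar collagens, Col5a1 (0.98 ± 0.08) and Col1a1 (0.97 ± 0.15) rose, while Col1a2, the partner chain of Col1a1, stood at 0.58 (adjusted p = 0.0224), Col3a1 at 0.12 (adjusted p = 0.554) and Col5a2 at -0.25 (adjusted p = 0.0343). Col3a1 read 11.71, 11.58 and 11.77 in control and 11.66, 11.72 and 12.03 in knockdown arrays, which overlapped. The 3 type VI chains were not called (-0.04, -0.15 and 0.54 for Col6a1, Col6a2 and Col6a3). The Col6a3 arrays did not overlap, at 10.39, 10.41 and 10.39 against 10.82, 11.01 and 10.99, but the change was under 1.5-fold. Without knockdown replicate 1, Col6a3 was called higher, while its second detected probe gave 0.24. Col16a1 read 9.3, 9.4 and 9.11 against 9.98, 10.03 and 9.81 and rose by 0.68 ± 0.15 (adjusted p = 0.00168), a call lost with 75th percentile scaling and without scaling. Col7a1 read 5.15, 5.23 and 4.9 against 5.83, 5.78 and 5.68 (0.67 ± 0.12, adjusted p = 0.000237). The Col7a1 call was lost without control replicate 3, without background correction (by either scaling) and with an offset of 50. Col17a1, a collagen of hemidesmosomes, was at least 1.39-fold higher, entered the test through knockdown cells alone, lost its call under the same 3 settings, and had a second probe, at 0.44, that was not called.

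The decreases at the SNM stage were of 3 genes that were detected in both conditions. Col9a3, the partner of Col9a2 in collagen IX, read 8.44, 8.33 and 8.47 log2 units in control and 6.91, 7.01 and 7.12 in knockdown arrays (-1.40 ± 0.07, adjusted p = 9.84e-11). Col9a1, the third chain type, read 9.04, 9.12 and 9.31 against 9.23, 9.48 and 9.68, with overlap (0.30, adjusted p = 0.0805), so of the chains of collagen IX 1 was higher, 1 lower and 1 not called. Col20a1 read 8.02, 7.97 and 7.95 against 7.01, 7.02 and 6.64 (-1.09 ± 0.11, adjusted p = 8.25e-07). Col15a1, a basement membrane zone collagen of muscle and vessels, read 6.70, 6.76 and 6.48 against 6.16, 6.12 and 5.79 (-0.62 ± 0.12, adjusted p = 0.000577). The Col15a1 arrays did not overlap, but it lost the call without control replicate 2 or knockdown replicate 3, without background correction, without scaling and with an offset of 50.

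Cartilage markers moved in the same cells: 2 of 7 were detected in control and 5 of 7 in knockdown SNM cells, and the 2 detected in both, Sox9 (0.77) and Hapln1 (1.94), were higher. Acan, Comp and Matn1 entered the test only through knockdown cells and were also called higher. Acan, the main cartilage proteoglycan, was detected on 1 of the 3 control arrays and averaged 4.71 log2 units there against 7.48, and Comp and Matn1, detected on no control array, were at least 7.72-fold and 4.32-fold higher. The log2 of the summed signal of all 7 cartilage markers was 11.82 to 11.92 in control and 12.60 to 12.85 in knockdown arrays. Most of that signal was of Sox9, which averaged 11.81 and 12.58 log2 units. Matn3 was detected on no array. Of 10 skeletal muscle markers tested, 8 were higher, as were 4 of 13 fibroblast markers, while 6 of 9 oligodendrocyte and 2 of 5 neuron markers were lower. Their part in the rise of collagen values was not tested.

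**Figure D2:**
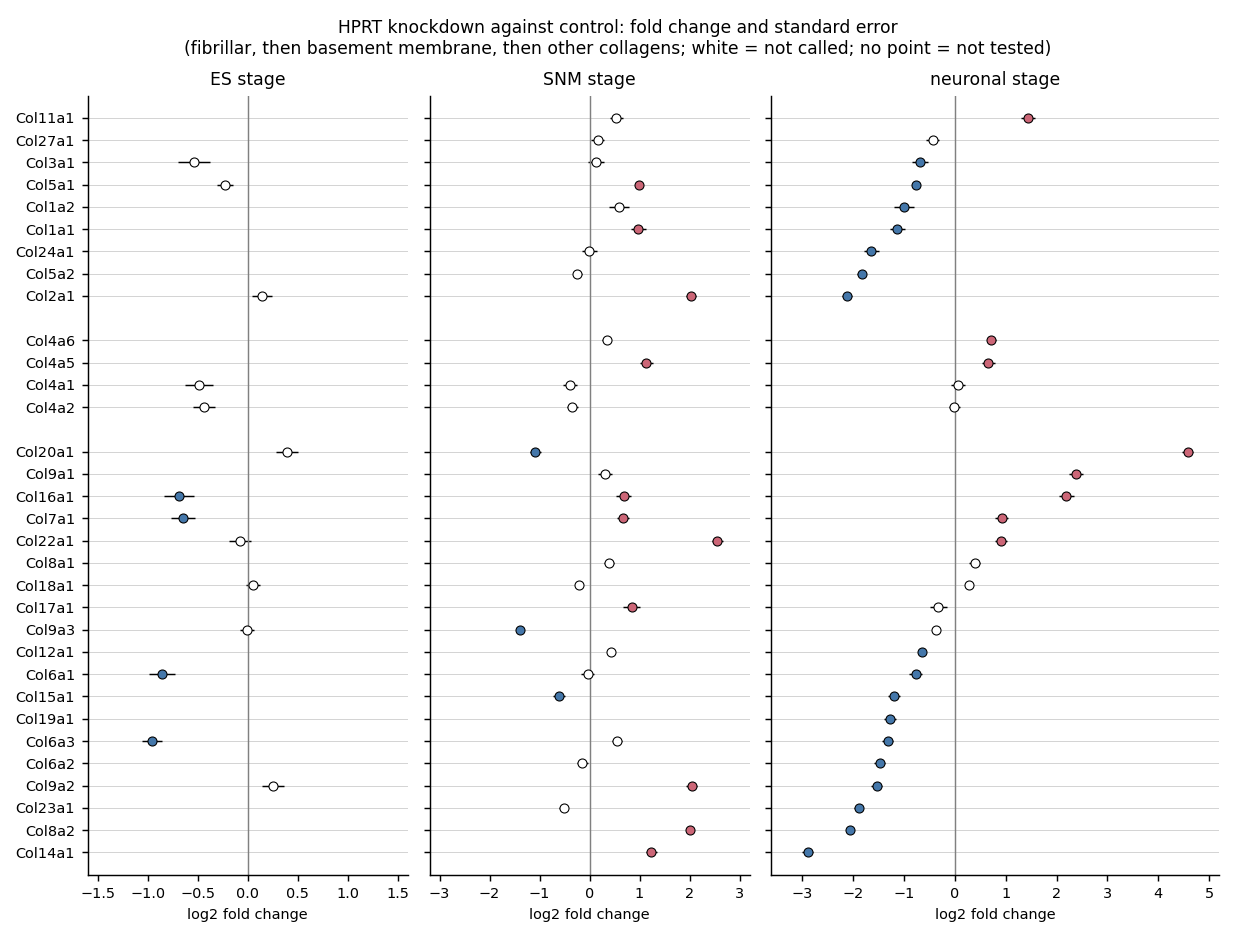
Log2 fold change (knockdown minus control, x axis) with SE for each collagen gene tested, at the ES, SNM and neuronal stages (panels with different x ranges), ordered as fibrillar, basement membrane and other; red points were called higher, blue lower, white neither. The ES panel has 4 blue and no red points, the SNM panel 11 red and 3 blue, and the neuronal panel 8 red and 17 blue.

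Col4a1 and Col18a1, the brightest basement membrane and other collagens, differed little at the SNM stage. Col4a1 read 10.80, 10.93 and 11.27 log2 units against 10.47, 10.74 and 10.61 (-0.39, adjusted p = 0.0239) and Col18a1 read 10.93, 11 and 11.01 against 10.77, 10.91 and 10.63 (-0.21, adjusted p = 0.0216), both under 1.5-fold.

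At the neuronal stage more collagens were lower than higher: 17 of 32 tested (53.1%) were lower and 8 (25%) higher in knockdown cells, against 14.4% lower and 14.3% higher over all genes. The median was -0.66 log2 units, with 0.01 over all genes. Fibrillar collagens carried 7 decreases and 1 increase among 9 tested (median -0.99), basement membrane collagens 2 increases among 4 (median 0.37), and other types 10 decreases and 5 increases among 19 (median -0.65). Of the calls, 15 decreases and 7 increases were of genes detected in both conditions.

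Col14a1 had the largest decrease. Its control arrays read 8.33, 8.52 and 8.29 log2 units and its knockdown arrays 5.68, 5.45 and 5.33, a change of -2.89 ± 0.11 (adjusted p = 1.02e-12), and its second probe was also called lower. Col2a1 read 10.77, 10.48 and 10.63 against 8.51, 8.58 and 8.43 (-2.12 ± 0.10, adjusted p = 3.92e-11). Col8a2 read 9.21, 9.07 and 8.94 against 7.07, 6.97 and 7.0 (-2.06 ± 0.08, adjusted p = 1.29e-12). In each of these 3 genes the groups were far apart and in the opposite order to the SNM stage. Col9a2 was also in opposite order, at 8.91, 8.87 and 8.93 against 7.62, 7.31 and 7.17 (-1.53 ± 0.11, adjusted p = 4.01e-09).

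Among fibrillar collagens, both chains of type I fell (Col1a1 -1.13, Col1a2 -0.99), as did Col5a2 (-1.83), Col5a1 (-0.76) and Col24a1 (-1.64), which was detected on 2 of the 3 knockdown arrays. Col1a1 read 10.24, 10.17 and 10.19 log2 units in control and 9.14, 9.06 and 9.03 in knockdown cells (adjusted p = 6.15e-06), and Col1a2 read 8.38, 9.14 and 9.11 against 7.55, 7.8 and 8.3 (adjusted p = 0.000447). The groups did not overlap for either chain, and the Col1a2 arrays were the more spread. Col5a2 read 8.49, 8.4 and 8.46 against 6.65, 6.6 and 6.61 (adjusted p = 6.75e-11), and Col5a1 read 11.33, 11.23 and 11.27 against 10.54, 10.55 and 10.47 (adjusted p = 5.01e-07). Both chains of type V were thus apart in all arrays, while Col5a3 was detected in no condition. Col3a1 read 12.76, 12.87 and 12.84 log2 units against 12.02, 12.01 and 12.41 (-0.68 ± 0.16, adjusted p = 0.00136), with no overlap. All 3 chains of type VI fell, but not every probe did. Col6a1 read 12.36, 12.27 and 12.16 against 11.49, 11.55 and 11.43 (-0.77 ± 0.13, adjusted p = 9.01e-05), Col6a3 read 10.95, 11.05 and 10.85 against 9.54, 9.59 and 9.75 (-1.32 ± 0.10, adjusted p = 1.62e-08), and Col6a2 differed by -1.47. The second probes of Col6a2 (-0.22), Col6a3 (-0.44) and Col12a1 (-0.07) were not called. Col15a1 read 7.23, 6.99 and 7.08 against 5.93, 6.08 and 5.72, a change of -1.19 ± 0.12 (adjusted p = 5.06e-07). Col23a1, a transmembrane collagen, read 7.57, 7.55 and 7.46 against 5.72, 5.61 and 5.58 (-1.89 ± 0.09, adjusted p = 4.06e-11). Col12a1 (-0.65) and Col19a1, at least 1.81-fold lower, complete the decreases. The Col12a1 call was lost without knockdown replicate 3, without background correction and with an offset of 50.

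The largest increase was of Col20a1. Its control neuronal arrays read 6.84, 6.39 and 6.63 log2 units and its knockdown arrays 11.27, 11.13 and 11.20, a 23.9-fold difference (4.58 ± 0.11, adjusted p = 7.25e-15). At the ES stage the same probe read 7.74, 7.99 and 7.79 in control and 8.30, 8.25 and 8.13 in knockdown cells (0.39, adjusted p = 0.0376), below 1.5-fold. Col9a1 read 8.58, 8.85 and 8.68 against 10.79, 11.03 and 11.46 (2.39 ± 0.14, adjusted p = 4.23e-10), and its 4 probes gave 2.18 to 2.39. Col16a1 read 10.19, 10.05 and 10.04 against 12.34, 12.31 and 12.21 (2.19 ± 0.15, adjusted p = 4.3e-09). All arrays of the 3 genes were separated.

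Col11a1, a minor chain of cartilage fibrils, rose by 1.44 ± 0.13 (adjusted p = 1.08e-07) and was detected on 2 of the 3 control arrays. It passed the detection filter through knockdown cells alone, and its other probes, untested at this stage, gave 0.39, 0.01 and 0.2. Collagen IX was again split: Col9a1 rose, Col9a2 fell, and Col9a3 (8.21, 8.28 and 8.34 against 7.79, 8.01 and 7.92) differed by -0.37, under 1.5-fold. Col22a1 (0.91) and Col7a1 (0.92) rose, the latter not without background correction or with an offset of 50. Col22a1 read 6.76, 6.52 and 6.48 against 7.65, 7.39 and 7.44. Col18a1, the endostatin precursor and the brightest of the other types, read 11.50, 11.56 and 11.54 against 11.86, 11.81 and 11.79. The groups did not overlap, but the difference of 0.29 was under 1.5-fold, and a second detected probe (0.49) was not called.

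The chains of type VIII differed at the neuronal stage: Col8a2 fell, as above, while Col8a1 read 9.29, 9.44 and 9.32 in control and 9.66, 9.67 and 9.91 in knockdown cells (0.39, adjusted p = 0.00237), under 1.5-fold. At the SNM stage Col8a1 had also differed by 0.39 (adjusted p = 0.00325), where Col8a2 rose by 2.00.

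Type IV chains went different ways by gene pair. Col4a1 read 11.35, 11.72 and 11.56 log2 units in control and 11.37, 11.67 and 11.81 in knockdown neuronal cells, overlapping (0.07 ± 0.14, adjusted p = 0.668), and Col4a2 gave -0.01 ± 0.11 (adjusted p = 0.967). Col4a3 and Col4a4, the chains of mature glomerular membrane, were detected in no condition. Col4a5 read 9.18, 9.41 and 9.25 against 9.83, 9.90 and 10.09 (0.66 ± 0.13, adjusted p = 0.000272), and Col4a6 read 5.44, 5.42 and 5.49 against 6.08, 6.30 and 6.14 (0.72 ± 0.09, adjusted p = 2.5e-06). The groups were separated for both genes. The Col4a6 call was lost without background correction (by either scaling) and with an offset of 50, and a second Col4a6 probe, at 0.56, was not called. At the SNM stage Col4a5 was higher (1.13 ± 0.13, adjusted p = 1.64e-06) and Col4a6 was at 0.34, under 1.5-fold.

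Col4a5 and Col4a6 lie head to head on chromosome X with annotated starts 1343 bases apart. Bases upstream of this pair are printed because both genes were called higher at the neuronal stage. Each stretch ends where the annotated gene begins, which is 49 bases (Col4a5) and 19 bases (Col4a6) before the start that the RefSeq window is built on. They are RefSeq sequence of build GRCm38.p6, read 5′ to 3′ on the strand of the gene, with GC boxes (GGGCGG on either strand) and CCAAT (either strand) in capitals. The Col4a5 stretch is chrX:141475169-141475369 (plus strand) and the Col4a6 stretch is chrX:141474096-141474326 (minus strand).
Col4a5: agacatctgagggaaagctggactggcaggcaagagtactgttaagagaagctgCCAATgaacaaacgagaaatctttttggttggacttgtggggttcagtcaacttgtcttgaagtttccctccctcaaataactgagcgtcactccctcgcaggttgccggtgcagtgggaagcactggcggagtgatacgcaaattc
Col4a6: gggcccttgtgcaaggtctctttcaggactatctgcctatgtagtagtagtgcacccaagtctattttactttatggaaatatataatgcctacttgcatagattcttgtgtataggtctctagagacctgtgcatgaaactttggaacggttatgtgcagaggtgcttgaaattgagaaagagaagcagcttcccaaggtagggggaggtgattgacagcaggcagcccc
The Col4a5 stretch held 1 CCAAT. Neither printed stretch held a GC box, but the whole window of each gene held 1, past the end of the stretch.

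In knockdown cells 6 collagens were higher at the SNM stage and lower at the neuronal stage: Col1a1, Col2a1, Col5a1, Col8a2, Col9a2 and Col14a1. Of these, Col5a1, Col8a2 and Col9a2 had a window in the RefSeq table and are shown in the same way. The stretches are chr2:27886175-27886380 for Col5a1, which ends 44 bases before the start, chr4:126286544-126286793 for Col8a2 and chr4:121039316-121039565 for Col9a2, all on the plus strand.
Col5a1: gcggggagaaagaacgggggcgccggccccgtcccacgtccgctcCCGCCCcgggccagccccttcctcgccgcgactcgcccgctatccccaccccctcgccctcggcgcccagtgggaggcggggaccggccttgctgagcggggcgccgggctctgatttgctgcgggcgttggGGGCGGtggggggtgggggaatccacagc
Col8a2: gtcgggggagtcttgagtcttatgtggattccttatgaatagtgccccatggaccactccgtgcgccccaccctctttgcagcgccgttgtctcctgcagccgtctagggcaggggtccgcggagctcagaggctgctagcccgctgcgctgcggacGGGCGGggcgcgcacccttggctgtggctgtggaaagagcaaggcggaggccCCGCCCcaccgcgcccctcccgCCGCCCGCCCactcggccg
Col9a2: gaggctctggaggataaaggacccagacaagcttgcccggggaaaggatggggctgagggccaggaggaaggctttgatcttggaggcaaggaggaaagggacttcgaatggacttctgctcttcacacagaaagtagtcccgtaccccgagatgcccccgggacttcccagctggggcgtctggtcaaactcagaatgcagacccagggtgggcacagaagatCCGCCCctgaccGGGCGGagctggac
Col5a1 held 2 GC boxes, Col8a2 held 4, some overlapping, and Col9a2 held 2, with no CCAAT in any. Over windows from 250 bases before to 50 after an annotated start, GGGCGG was present for 59.4% of the 32 collagen genes with a window and for 38.2% of all 27025 genes, CCAAT for 37.5% and 41.1%, and TATAAA for 15.6% and 15.7%. These matches describe letters in the windows only.

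Markers of other cell types also differed widely at the neuronal stage. Of 12 skeletal muscle markers 11 were lower in knockdown cells (median -6.96 log2 units), with a summed log2 signal of 16.22 to 16.24 in control and 8.81 to 9.17 in knockdown arrays. Fibroblast and mesenchyme markers were lower for 7 and higher for 2 of 14 (summed log2 14.23 to 14.45 against 13.55 to 13.79), including Lum at -2.60 and S100a4 at 1.5. Oligodendrocyte markers were higher for 10 of 10 (11.61 to 11.69 against 15.69 to 15.82), and 4 of 5 neuron markers were lower, Ina by -3.57 and Stmn2 by -3.07. Cartilage markers were higher for 2 and lower for 1 of 4. Their part in the collagen differences was not tested.

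**Figure D3:**
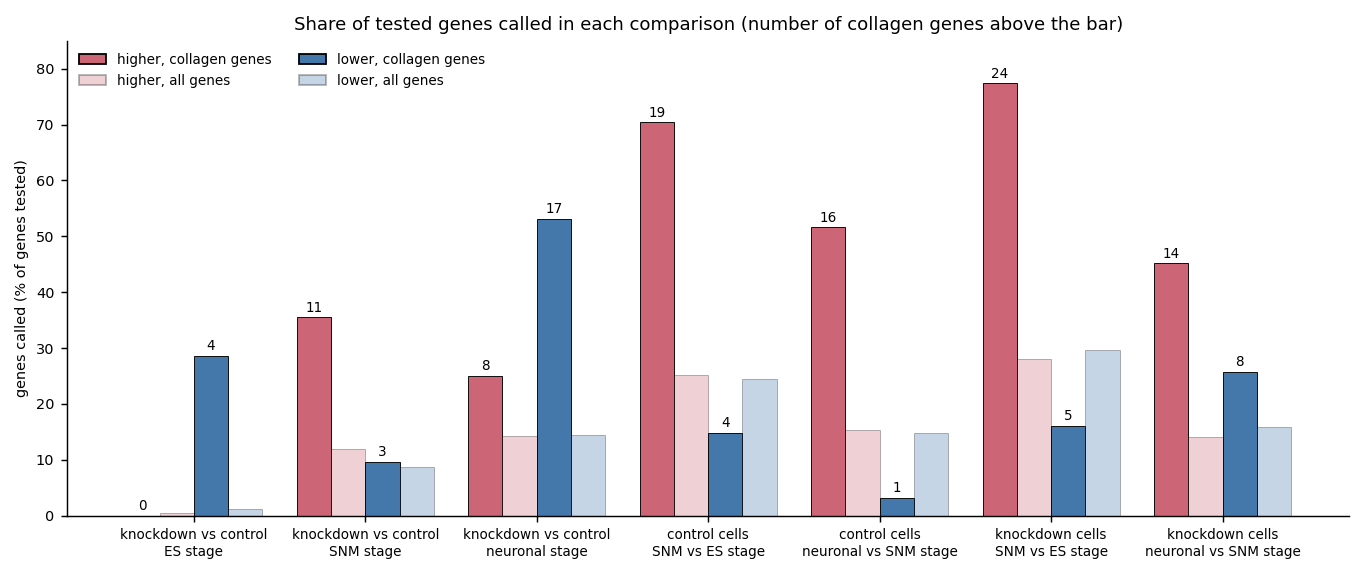
Percent of tested genes called (y axis) in 7 comparisons (x axis) for collagen genes (dark bars, counts above) and all genes (pale bars). Bars for steps between stages include genes that entered the test through 1 stage alone. In the knockdown comparisons the collagen bars for higher genes at the SNM stage (35.5%) and lower genes at the neuronal stage (53.1%) stand above those of all genes (12% and 14.4%).

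Whether the knockdown difference itself changed between stages was tested with the interaction of knockdown and stage. A gene entered this test if detected on all 3 arrays of any 1 condition compared, which can be the condition where it was high. Between the ES and SNM stages the difference became more positive for 15 of 31 collagens tested and more negative for 3 (12.8% and 9.62% of all genes). Nothing is read from these counts against the shares of all genes, because several of the genes were not detected at the ES stage. The largest values were of Col22a1 (2.64 ± 0.16), Col8a2 (1.91 ± 0.11) and Col2a1 (1.88 ± 0.15). Col1a1, Col8a2, Col14a1 and Col15a1 were detected on no ES array, so their ES difference is one between background signals. Col4a5, Col8a1 and Col17a1 were detected on 1 control ES array and on no knockdown ES array. Between the SNM and neuronal stages the knockdown difference became more negative for 19 of 32 and more positive for 5 (16% and 13.3% of all genes). Of these, Col11a1, Col17a1, Col19a1, Col24a1 and Col27a1 were not detected in every condition compared. The largest negative changes were of Col2a1 (-4.14 ± 0.15), Col14a1 (-4.12 ± 0.15), Col8a2 (-4.06 ± 0.11) and Col9a2 (-3.57 ± 0.15), and the largest positive one of Col20a1 (5.67 ± 0.16). The change was negative for 8 of 9 fibrillar genes tested and was not called for any of 4 basement membrane genes. The 2 interactions share the SNM arrays, so their values are not independent.

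Collagen chains need modifying enzymes in the secretory pathway and cross-linking outside the cell, and these genes are given here by role. Over all genes, knockdown calls came to 0.531% higher and 1.27% lower in ES cells. These shares were 12% and 8.76% in SNM cells, then 14.3% and 14.4% in neuronal cells. The lists here and in the next paragraph are short, and some of their counts lie near these shares. Whether any list differed from all genes was not tested, so the counts are given as values only. Of prolyl hydroxylases and chaperones, 1 of 12 was lower at the ES stage (Leprel1, -0.62), 2 of 13 were higher at the SNM stage (P4ha2 0.74, P4ha3 at least 1.27-fold), and 4 were higher and 2 lower of 12 at the neuronal stage (Leprel1 1.87, Crtap -0.97). Lysyl hydroxylases and collagen glycosyltransferases had no call of 4, 2 of 5 higher (Glt25d2 1.00, Plod1 0.72) and 4 of 5 higher (Glt25d2 2.87, Plod2 1.08) at the 3 stages. Propeptide-cleaving genes had none of 3, 2 of 4 higher (Pcolce 1.31, Bmp1 0.76), and 1 higher (Bmp1 0.89) and 1 lower (Adamts2 -1.01) of 4. Lysyl oxidases, the cross-linking enzymes, had none of 2, 1 of 3 higher (Loxl4, at least 1.78-fold) and 1 of 3 lower (Loxl1 -0.64).

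Of the fibril-associated proteins, 1 of 6 was lower at the ES stage (Bgn -0.82) and 4 of 8 were higher at the SNM stage (Fmod 2.34, Sparc 1.16). Fmod was detected on 1 of the 3 control SNM arrays and entered that test through knockdown cells alone. At the neuronal stage 4 were lower and 1 higher of 7 (Lum -2.60, Tgfbi -1.75, Sparc 0.91). Of the collagen receptors, none of 3 was called at the ES stage, 3 of 5 were higher (Ddr1 1.41, Itga1 0.83) and 1 lower (Itgb1 -0.73, adjusted p = 0.0391) at the SNM stage, and 2 of 5 were higher at the neuronal stage (Itga1 1.44, Ddr1 1.34).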

How the data were processed

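Total RNA of ESD3 cells was measured on Illumina mouse arrays, 18 in all, 3 for each of 6 conditions. The deposited table holds an intensity and a detection p-value per probe and array, quantified by the authors with Illumina software. The software's background treatment and scaling are not given in the sources used here. The authors analysed the values with t-tests and fold-change limits. A further 72 value columns could not be tied to a sample and were not used.

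The deposited intensity values were background-corrected and quantile-normalized with neqc (limma 3.58.1, R 4.3.3; detection p-values for the background, offset 16), then taken to log2. All 6 conditions entered 1 model. A probe was tested if it was detected (p under 0.05) on every array of 1 or both conditions in the comparison, and p-values were adjusted over all tested probes by Benjamini-Hochberg. A call needed an adjusted p under 0.05 and at least 1.5-fold. A gene detected on no array of a condition is given as a bound, except in the interaction values, which carry no bound. A summed log2 signal is the log2 of the summed signals of a list. Between 18827 and 22202 probes were detected per array, and the number of arrays limits the precision. The fit was tested on simulated data.

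Genes given in full are the 3 largest rises and falls called per stage and the brightest gene of each group, with chains of 1 heterotrimer or gene pair beside them. The members and lists were chosen with earlier results of these data known. Alternatives changed the normalization, filter, fold minimum, test, probe rule and arrays used. Control and knockdown arrays numbered 1 and 3 deviated together at the SNM stage (correlations 0.486 and 0.489) and at the neuronal stage (0.605 and 0.325). Those numbered 2 hardly did (0.108 and 0.094), and at the ES stage the values were -0.094, 0.025 and 0.096. The main model held no term for the array number. Promoter sequences are from RefSeq tables (32 of 40 collagens matched), and Python 3.11.15 was used for tables and figures.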

Additional observations from a re-analysis of the deposited data

Results flagged for a closer look

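The difference between knockdown and control cells changed from one stage to the next for many collagen genes, by the interaction term of the limma model (adjusted p under 0.05 and at least 1.5-fold). All values are changes of the knockdown difference on the log2 scale, with 3 arrays in each condition.

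From the ES to the SNM stage the knockdown difference became more positive for Col1a1 (1.0), Col2a1 (1.88), Col3a1 (0.65), Col4a5 (1.23), Col5a1 (1.21), Col6a1 (0.82), Col6a3 (1.5), Col7a1 (1.33), Col8a1 (0.68), Col8a2 (1.91), Col9a2 (1.79), Col14a1 (1.2), Col16a1 (1.37), Col17a1 (1.0) and Col22a1 (2.64). It became more negative for Col9a3 (-1.39), Col15a1 (-0.76) and Col20a1 (-1.48). From the SNM to the neuronal stage it became more positive for Col9a1 (2.08), Col9a3 (1.03), Col11a1 (0.91), Col16a1 (1.51) and Col20a1 (5.67). It became more negative for Col1a1 (-2.1), Col1a2 (-1.57), Col2a1 (-4.14), Col3a1 (-0.8), Col5a1 (-1.74), Col5a2 (-1.58), Col6a1 (-0.73), Col6a2 (-1.32), Col6a3 (-1.86), Col8a2 (-4.06), Col9a2 (-3.57), Col12a1 (-1.08), Col14a1 (-4.12), Col17a1 (-1.16), Col19a1 (-1.22), Col22a1 (-1.65), Col23a1 (-1.37), Col24a1 (-1.63) and Col27a1 (-0.59). The Col3a1 value from ES to SNM stage lost its call under 12 alternatives and the Col27a1 value from SNM to neuronal stage under 12. For Col3a1 these included leaving out control ES replicate 1, knockdown ES replicate 2 or 3, control SNM replicate 2 or knockdown SNM replicate 3, and for Col27a1 control SNM replicate 1, knockdown SNM replicate 2, control neuronal replicate 2 or 3, or knockdown neuronal replicate 1 or 3. From ES to SNM stage, calls were also lost under fewer alternatives for Col6a1 (6), Col8a1 (5), Col15a1 (4), Col17a1 (3) and Col14a1 (1). From SNM to neuronal stage the same held for Col11a1 (5), Col6a1 (2), Col3a1 (1) and Col17a1 (1). Several values rest in part on background signal. Among these, Col1a1, Col8a2, Col14a1 and Col15a1 were detected on no ES array and Col6a3 on no knockdown ES array. Col4a5, Col8a1 and Col17a1 were detected on 1 control ES array and on no knockdown ES array. Col19a1 was detected on no SNM array and no knockdown neuronal array. Both sets of values use the same SNM arrays, and no explanation was tested.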

How the results depend on the processing

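The number of collagens lower in knockdown ES cells was 4 and fell to 0 with quantile normalization or 75th percentile scaling without background correction, with an offset of 50, with a minimum of 2-fold, and with the adjusted t-test of the methods, and to 2 with the mean over detected probes. The 2-fold minimum gave 6 in place of 11 higher genes at the SNM stage, 4 in place of 8 higher at the neuronal stage, and 12 in place of 22 changed from SNM to neuronal stage in knockdown cells.

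The median change moved at the ES stage from -0.33 to -0.21 (quantile), -0.19 (75th percentile), -0.22 (offset 50), -0.06 (no detection filter), and -0.23 (detection p under 0.01, and mean over probes). At the SNM stage it moved from 0.39 to 0.25, 0.26, 0.26, 0.09 (no filter) and 0.27 (mean over probes), and at the neuronal stage from -0.66 to -0.58 for the first 3 settings, -0.33 and -0.55. Col1a1 from SNM to neuronal stage in knockdown cells reversed, from 0.80 to -0.11, with the mean over probes. The cause was not tested.

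Leaving out 1 array at a time gave 0 to 0 higher and 2 to 4 lower at the ES stage, with 2 without control replicate 2. It gave 11 to 14 higher and 2 to 3 lower at the SNM stage, and 8 to 8 higher and 16 to 17 lower at the neuronal stage. Changed genes numbered 23 to 24 and 17 to 18 in control cells, 26 to 29 and 20 to 22 in knockdown cells, and 17 to 19 and 23 to 25 for the interactions. The medians ranged from -0.44 to -0.29, 0.37 to 0.42 and -0.67 to -0.65. With the array number as a replicate block the calls numbered 4, 14 and 25 at the 3 stages, and no call changed.

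Of the calls, 0 of 4, 8 of 14 and 16 of 25 at the 3 stages held under every alternative. The t-test could not be run for the interactions. Arrays of a condition carry 1 RNA pool, so differences between cultures were not measured. Weak signals near background limit Col11a1, Col17a1, Col19a1, Col24a1 and Col27a1 most.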

Other observations

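Marker lists whose calls are not given in the report were counted in the same way for knockdown against control cells. Of the pluripotent stem cell markers, none of 7 was called at the ES stage by limma, 4 of 6 were lower at the SNM stage and 6 of 6 were lower at the neuronal stage. Endothelial markers were lower for 1 of 4, then higher for 2 and lower for 1 of 6, then lower for 2 of 3. Pericyte and smooth muscle markers were lower for 2 of 3, higher for 1 of 3, and higher for 1 and lower for 2 of 5. Schwann cell and neural crest markers were lower for 1 of 5, lower for 3 of 6, and higher for 2 and lower for 1 of 6. Extraembryonic endoderm markers had 0 of 7 called, then 3 higher and 1 lower of 7, then 4 higher of 7. Meninges and choroid plexus markers had 0 of 3 called, then 3 higher and 1 lower of 6, then 1 higher and 3 lower of 7. Neural progenitor markers were lower for 1 of 4, higher for 1 and lower for 1 of 4, and higher for 1 and lower for 2 of 4. Dopaminergic neuron markers had 0 of 1 called, then 1 higher and 1 lower of 3, then 1 higher of 3. These counts are given as values only.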
